A study of Rattus norvegicus with 8 samples.

Results

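Collagen made by ligament fibroblasts is hydroxylated on proline and lysine before it leaves the cell. The 10 genes described here encode the enzymes that do this and their partners, chosen by name: the prolyl 4-hydroxylase subunits P4ha1, P4ha2, P4ha3 and P4hb, the lysyl hydroxylases Plod1, Plod2 and Plod3, and the prolyl 3-hydroxylase group P3h1, P3h3 and Crtap. All 10 were among the 17337 genes of the deposited count table, and 9 passed the filter on low counts. Of these 9, 1 changed between the ages: P4ha3 was lower at P28 than at P18, a call made for 0.42% of all tested genes (adjusted p under 0.05). Crtap was listed at 0 counts in every library.

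The RNA came from periodontal ligament, the tissue that ties the tooth root to bone, cut by laser from the cervical (crown-side) part of rat roots. The 4 P28 animals (age 28 days) and the 4 P18 animals (age 18 days) all grew normally and without treatment, per the labels, and each gave 1 library made with a low-input kit. The ages lie after and before the teeth of opposing jaws come into contact. The labels call the tissue PDL, and 7 of its 8 marker genes on the list used here were in the table, Tnmd, Postn, Col1a1 and Col3a1 among them, none at 0 in all libraries.

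Library totals ran from 5252693 to 17803006 counts at P28 and from 10863769 to 26645656 at P18. P28 replicate 4, the shallowest, stands apart in its expression profile: its mean correlation across genes with the other libraries of its age was 0.759, against 0.785 to 0.816 for the other 7 libraries. Values without it are given where a result rests on it. The summed level of the ligament fibroblast markers was 128620 to 177160 CPM (counts scaled to library size) at P28 and 82501 to 126860 CPM at P18. Col1a1, Col3a1 and Postn made up nearly all of this sum, so it follows the RNA of these genes and does not measure the share of fibroblasts. For osteoclast markers (6 of 8 in the table, none at 0 throughout) the sums were 1024 to 7814 CPM at P28 and 1451 to 1710 CPM at P18. For osteoblast and cementoblast markers (8 of 8) they were 5591 to 10210 CPM at P28 and 3736 to 5757 CPM at P18. Enamel organ markers (8 of 8) ran from 38.9 to 3560 CPM at P28 and from 34.5 to 5357 CPM at P18. At P28 this sum was mostly Krt14, Krt5 and Odam (means of 844, 345 and 198 CPM). At P18 it was mostly Ambn and Odam (means of 800 and 609 CPM). Similar sums therefore do not show a similar share of enamel organ. In such captures, fewer cells of a type and less RNA per cell cannot be told apart.

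Prolyl 4-hydroxylase joins alpha subunits, which carry the active site, to beta subunits, and the hydroxyproline it makes keeps the collagen triple helix stable at body temperature. Lysyl hydroxylases prepare lysines for sugar attachment and for the cross-links that tie collagen molecules in a fibril. Prolyl 3-hydroxylases modify only a few prolines in a chain. These hydroxylases work in the endoplasmic reticulum and need iron, 2-oxoglutarate and ascorbate. Periodontal ligament is known for a fast turnover of its collagen, and its fibre bundles thicken when teeth start to bear load.

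The promoters of the 3 alpha subunit genes are shown because these genes are alternative sources of the same subunit and P4ha3, the called member, is one of them. The sequences are RefSeq's on the build GRCr8, from 250 bases before to 50 after the gene start, read on the gene's strand. Capitals mark ACGTG and GCGTG on either strand, the core letters bound by hypoxia-inducible factors, which are known to act on P4ha1, P4ha2 and Plod2. P4ha1 lies at chr20:27844796-27845095 (plus strand), P4ha2 at chr10:38743644-38743943 (plus strand) and P4ha3 at chr1:164040614-164040913 (plus strand).
P4ha1: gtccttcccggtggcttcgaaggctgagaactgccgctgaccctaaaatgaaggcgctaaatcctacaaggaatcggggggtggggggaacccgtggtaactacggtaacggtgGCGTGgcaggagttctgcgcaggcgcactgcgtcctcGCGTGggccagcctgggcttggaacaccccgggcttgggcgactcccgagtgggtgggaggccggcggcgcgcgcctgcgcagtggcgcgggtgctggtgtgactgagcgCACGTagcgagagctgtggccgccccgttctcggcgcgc
P4ha2: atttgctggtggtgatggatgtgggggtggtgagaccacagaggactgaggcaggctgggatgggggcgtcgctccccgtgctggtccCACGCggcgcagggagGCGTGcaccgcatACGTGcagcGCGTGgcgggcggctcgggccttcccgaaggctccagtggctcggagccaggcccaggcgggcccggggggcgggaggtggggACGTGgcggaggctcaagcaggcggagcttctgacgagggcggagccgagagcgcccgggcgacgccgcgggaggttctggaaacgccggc
P4ha3: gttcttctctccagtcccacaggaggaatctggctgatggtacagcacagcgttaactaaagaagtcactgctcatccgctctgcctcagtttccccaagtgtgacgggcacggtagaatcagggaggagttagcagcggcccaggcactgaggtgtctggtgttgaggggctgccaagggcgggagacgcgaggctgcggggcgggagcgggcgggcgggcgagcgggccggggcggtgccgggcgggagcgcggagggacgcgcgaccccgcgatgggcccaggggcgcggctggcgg
The P4ha1 window held 3 such matches, the P4ha2 window 5 and the P4ha3 window 0, and no ACGTG match overlapped a GCGTG match in them. At least 1 of the pair was found in 8 of the 10 promoters, P4ha3 and P3h3 being without, and in 41.6% of all 33469 promoters of 300 bases in the RefSeq table. The letters GGGCGG, or CCGCCC on the other strand, occurred 1 time in P4ha1, 3 times in P4ha2 and 6 times in P4ha3, against at least 1 occurrence in 33.1% of all promoters. The GC content of the 10 windows was 59.0% to 73.7%, beside a median of 51.7% over all promoters. A match describes letters only, and whether any factor binds there was not measured.

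P4ha3, the third gene for an alpha subunit, fell with age. Its level was 86.8, 111, 46.5 and 171 CPM in P28 replicates 1 to 4, against 299, 436, 312 and 376 CPM in P18 replicates 1 to 4. Library sizes here carry a TMM correction, which sets libraries level on the bulk of their genes. All 4 P28 libraries lay below all 4 P18 libraries, as they did for 5.54% of all tested genes. The means were 104 ± 52.2 CPM at P28 and 356 ± 63.2 CPM at P18 (SD, n = 4 each), a log2 fold change of -1.78 ± 0.33 (SE; edgeR quasi-likelihood test, adjusted p = 0.0332 over 10472 genes), so the level at P18 was 3.43 times that at P28. In the other direction 0.516% of all genes were called, and no member. Leaving out P18 replicates 1 to 4 in turn gave adjusted p of 0.0574, 0.114, 0.0857 and 0.0878, and leaving out P28 replicates 1 or 3 gave 0.123 and 0.0505, so the call ended in these 6 fits. It held without P28 replicate 2 (0.0455) or replicate 4 (0.0128), and the log2 fold change stayed between -2.13 and -1.53 in all 8 fits.

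Within P28, P4ha3 was lowest in P28 replicates 3 and 1, the libraries with the highest summed osteoclast markers (7814 and 5513 CPM), and higher in replicates 2 and 4 (1024 and 2058 CPM of these markers). Replicates 3 and 1 also had the highest P28 sums of ligament fibroblast markers (177160 and 160040 CPM) and of neutrophil markers (210 and 272 CPM). In the other marker lists these replicates did not both hold the highest sums. Over 4 libraries such lists cannot be told apart. The osteoclast sum lay below those of the P18 libraries in replicate 2 and above them in replicate 4. In both, P4ha3 was still below every P18 library. At P18 this sum was mostly Ctsk, with 1426 ± 99.9 CPM. Of 4 tested osteoclast markers, all had a log2 fold change above 0 and Acp5 was called. Acp5 had 1142 ± 1184 CPM at P28 and 90.1 ± 33.9 CPM at P18 (log2 fold change 3.67, edgeR adjusted p = 0.0494). The ages did not overlap for Acp5, so by this marker replicates 2 and 4 were not at the P18 level. Other markers also moved with age. Bglap, the bone matrix gene of osteocalcin, was the 1 called of 8 tested osteoblast and cementoblast markers. It was higher, at 1722 ± 821 CPM at P28 and 373 ± 134 CPM at P18 (log2 fold change 2.21, edgeR adjusted p = 0.0264). In that list 6 markers had a log2 fold change above 0 and 2 below. Of 6 tested ligament fibroblast markers, Tnmd, a tendon and ligament membrane protein, was lower like P4ha3 (104 ± 36.9 CPM at P28 and 560 ± 119 CPM at P18, log2 fold change -2.43, edgeR adjusted p = 0.00608) and Fmod, a fibril-binding proteoglycan, higher (345 ± 62.2 CPM at P28 and 44.1 ± 40.4 CPM at P18, 2.97, adjusted p = 0.0264). Of 6 tested enamel organ markers, the enamel matrix genes Amtn and Ambn were called lower, at 0.0408 ± 0.0815 and 2.39 ± 1.63 CPM at P28, against 55.8 ± 61.9 and 800 ± 1060 CPM at P18 (edgeR adjusted p = 0.0188 and 0.0204), while the keratins Krt5 and Krt14 had log2 fold changes of 2.73 and 2.41 that did not pass. All 6 tested neutrophil markers had a log2 fold change below 0 (median -1.95, 0 called by edgeR and 2 with an unadjusted p under 0.05), with sums of 24.97 to 272 CPM at P28 and 36.1 to 940 CPM at P18 and Ltf at 0 throughout. All 3 tested erythroid markers were also below 0 (median -2.14, 0 called by edgeR and 3 with an unadjusted p under 0.05), with sums of 590 to 4015 CPM at P28 and 2373 to 7979 CPM at P18. The macrophage, endothelial, mural and odontoblast lists held 0 edgeR calls. Above and below 0 were 5 and 1 macrophage, 2 and 4 endothelial, 4 and 2 mural, and 1 and 1 odontoblast markers. An unadjusted p under 0.05 was reached by 2 macrophage, 1 endothelial, 1 mural and 1 odontoblast marker, all higher, and by 1 mural marker, lower. The part of any of these cells in the P4ha3 fall was not tested.

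The other alpha subunit genes did not pass the test. P4ha1, the main alpha subunit of most tissues, had 159, 162, 69.2 and 175 CPM in P28 replicates 1 to 4, against 149, 158, 224 and 180 CPM in P18 replicates 1 to 4. The ages overlapped, and P28 replicate 3 alone was well below the rest. Its log2 fold change was -0.33 ± 0.28 (edgeR adjusted p = 0.645), with a 95% interval of -0.94 to 0.28. Without P28 replicate 3 the value was -0.10. On GRCr8 the P4ha1 gene overlaps Snrpd2l, and whether the counting used strand is not stated, so whether reads of the pair were kept apart is unknown. P4ha2, the alpha subunit gene best known from cartilage and bone cells, lay at 158 to 222 CPM at P28 and at 164 to 221 CPM at P18, nearly the same range. Its log2 fold change was -0.14 ± 0.19 (95% interval -0.55 to 0.28; edgeR adjusted p = 0.801).

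P4hb encodes the beta subunit, which also works alone as protein disulfide isomerase. It had 968, 1011, 938 and 1323 CPM in P28 replicates 1 to 4, against 1295, 1317, 1387 and 1349 CPM in P18 replicates 1 to 4. Of the P28 libraries, 3 lay below all P18 libraries and replicate 4 lay among them. The P18 libraries were close to each other, with a coefficient of variation of 3.0%, against 16.8% at P28. The log2 fold change was -0.34 ± 0.17 (95% interval -0.70 to 0.03; edgeR adjusted p = 0.395), and -0.46 without P28 replicate 4.

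**Figure D1:**
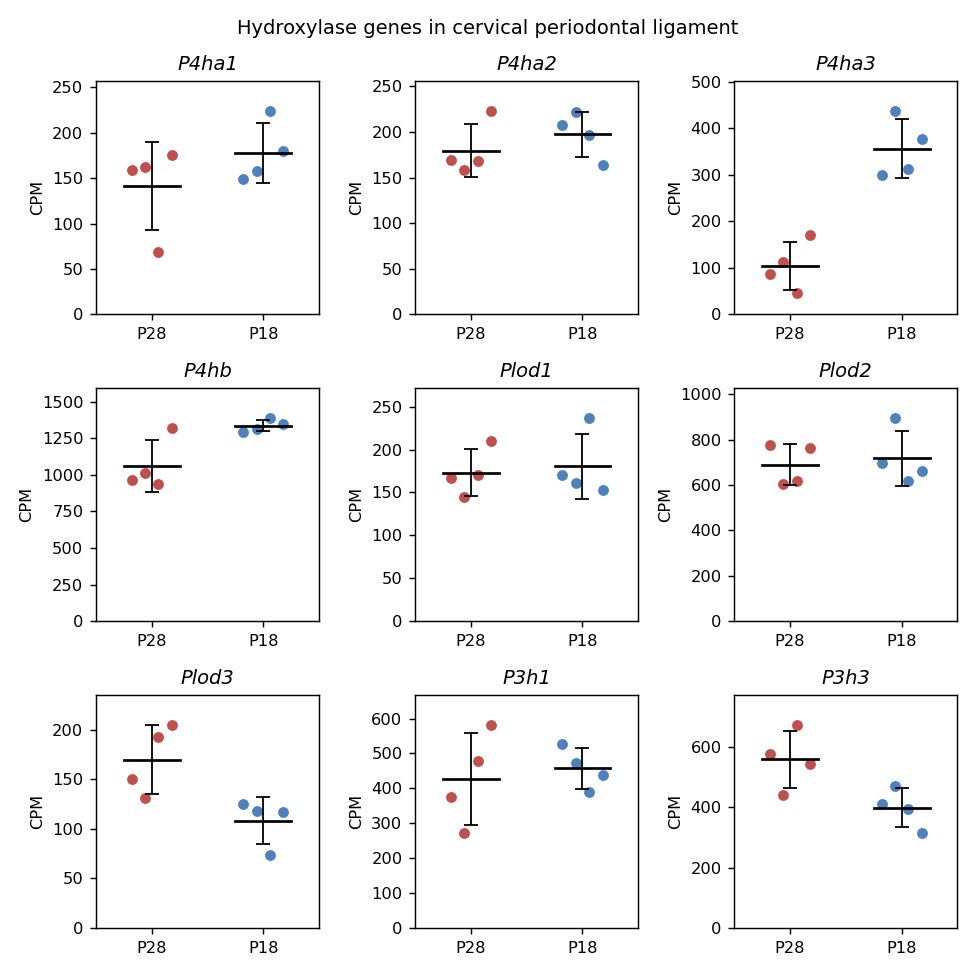
Levels of the 9 tested genes in CPM (vertical axes, from 0), with 1 point per library, the mean as a bar and the SD as whiskers, P28 in red and P18 in blue. P4ha3 lies between 46.5 and 171 CPM at P28 and between 299 and 436 CPM at P18, and Plod3 is the other gene whose ages do not overlap.

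The lysyl hydroxylases showed no called change. Plod2, which acts on the ends of collagen chains and so favours the stable cross-links of bone and scar, lay at 604 to 776 CPM at P28 and at 618 to 894 CPM at P18. Its log2 fold change was -0.06 ± 0.18, with a 95% interval of -0.46 to 0.34 (edgeR adjusted p = 0.927). Plod1, which acts on lysines of the triple helix, lay at 145 to 210 CPM at P28 and at 153 to 237 CPM at P18. Its log2 fold change was -0.06 ± 0.21 (95% interval -0.51 to 0.39; edgeR adjusted p = 0.933). The P28 and P18 ranges of both genes overlapped in part, with the highest library of each gene at P18.

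Plod3 encodes a lysyl hydroxylase that also adds glucose during sugar attachment. It had 150, 131, 193 and 205 CPM in P28 replicates 1 to 4, against 124, 117, 73.3 and 117 CPM in P18 replicates 1 to 4. All P28 libraries lay above all P18 libraries, as they did for 4.91% of all tested genes. The means were 170 ± 34.6 CPM at P28 and 108 ± 23.4 CPM at P18 (SD, n = 4 each). The log2 fold change of 0.65 ± 0.23 missed the threshold (edgeR adjusted p = 0.216; 95% interval 0.14 to 1.16), as it did in each of the 15 alternative fits run for it, and was 0.49 without P18 replicate 3. Plod3 overlaps Znhit1 on GRCr8. Znhit1 itself had 38.4, 38.9, 69.8 and 17.5 CPM in P28 replicates 1 to 4 and 24.6, 19.1, 13.4 and 29.2 CPM in P18 replicates 1 to 4. Znhit1 lay above every P18 library in 3 of the 4 P28 libraries, and P18 replicate 3 was lowest for both genes. P28 replicate 4 went the other way, highest of all libraries for Plod3 and lowest at P28 for Znhit1. The part of Znhit1 reads in the Plod3 values was not tested.

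Among the prolyl 3-hydroxylase genes, P3h1 encodes the enzyme that works in a complex with the helper protein CRTAP and cyclophilin B. It had 376, 273, 477 and 581 CPM in P28 replicates 1 to 4, against 527, 472, 391 and 438 CPM in P18 replicates 1 to 4. The P28 libraries spread on both sides of the P18 libraries. The log2 fold change was -0.10 ± 0.23 (95% interval -0.60 to 0.40; edgeR adjusted p = 0.893). P3h3, whose protein is known in mouse to work beside lysyl hydroxylase 1, had 578, 441, 673 and 544 CPM in P28 replicates 1 to 4, against 410, 471, 396 and 315 CPM in P18 replicates 1 to 4. Of the P28 libraries, 3 lay above all P18 libraries, and replicate 2 lay below P18 replicate 2. The log2 fold change of 0.49 ± 0.19 did not pass the test (95% interval 0.07 to 0.91, edgeR adjusted p = 0.263). On GRCr8 the P3h3 gene overlaps LOC120102385, and the part of its reads in the P3h3 values was not tested. Crtap had 0 counts in all 8 libraries, a limit of 0.108 to 0.624 CPM, depending on depth, if 3 counts could have been missed by chance. As many as 4197 genes of the table were at 0 in all 8 libraries, and since Crtap is a gene that collagen-making cells use, it is only reported as listed at 0.

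An unadjusted p under 0.05 was reached by 3 of the 9 members (P4ha3 lower, Plod3 and P3h3 higher), against 14.5% of all tested genes. The median log2 fold change of the 9 was -0.10, with 2 above 0 and 7 below, beside a median of 0.01 over all tested genes, of which 49.7% were below 0. The DESeq2 Wald test and limma with voom also called P4ha3 lower and none of the other 8 members. Over all 10472 tested genes, DESeq2 called 262 lower and voom 132, against 44 by edgeR.

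Set against Col1a1, the main collagen chain of the ligament and the chief substrate of these enzymes, 7 of the 9 members had a log2 fold change below 0, as did 75.3% of all tested genes, and P4ha3 was the member called. Col1a1 itself had 82845, 76986, 64611 and 64827 CPM in P28 replicates 1 to 4, against 68743, 58577, 37290 and 48679 CPM in P18 replicates 1 to 4, and did not pass the test (log2 fold change 0.44 ± 0.21, edgeR adjusted p = 0.358). Scaling each library by its Col1a1 count in place of TMM moved the median log2 fold change of all genes by -0.50, to -0.49, so a value near -0.49 on this scale is no change relative to other genes. P4ha3 had 1.05, 1.45, 0.72 and 2.64 counts per 1000 Col1a1 counts in P28 replicates 1 to 4, against 4.35, 7.44, 8.36 and 7.73 in P18 replicates 1 to 4. Again the P28 libraries lay below all P18 libraries, as for 11.1% of all genes on this scale. Its log2 fold change relative to Col1a1 was -2.25 ± 0.40 (edgeR adjusted p = 0.0203 over 10471 genes), or -1.76 relative to the median of all genes on that scale, where 0.926% of genes were called lower and 0.134% higher. This call held without P18 replicate 1 (adjusted p = 0.0112) or P28 replicates 2 (0.0387) or 4 (0.00942), and ended without P18 replicates 2, 3 or 4 (0.0536, 0.0734 and 0.0530) or P28 replicates 1 or 3 (0.0901 and 0.0587).

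For the remaining members the Col1a1-scaled values did not pass the test. P4hb had 11.7, 13.1, 14.5 and 20.4 counts per 1000 Col1a1 counts in P28 replicates 1 to 4, against 18.8, 22.5, 37.2 and 27.7 in P18 replicates 1 to 4. Only P28 replicate 4 reached into the P18 range. The log2 fold change relative to Col1a1 was -0.83 ± 0.31 for P4hb and -0.90 ± 0.37 for P4ha1 (edgeR adjusted p = 0.157 and 0.197). For P4ha2, Plod1, Plod2 and P3h1 it lay between -0.61 and -0.53, close to the median of all genes. Plod3 stood at 0.24 ± 0.30 and P3h3 at 0.02 ± 0.30 (edgeR adjusted p = 0.719 and 0.983), so on this scale P3h3 was level with Col1a1: 7.88 ± 2.01 counts per 1000 Col1a1 counts at P28 and 7.77 ± 2.10 at P18 (SD, n = 4 each). The sign of the P3h3 value turned in 5 of the 11 alternative fits on this scale.

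**Figure D2:**
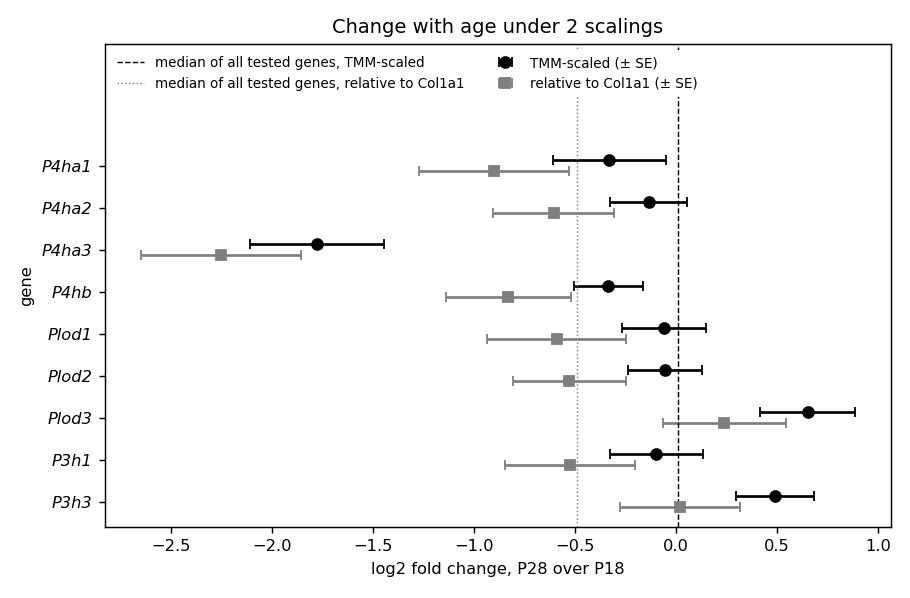
Log2 fold changes, P28 over P18, of the 9 tested genes (horizontal axis) with their SE, from the TMM-scaled fit (black circles) and relative to Col1a1 (grey squares). The vertical lines are the medians of all tested genes at 0.01 and -0.49, and P4ha3 lies far below both, at -1.78 and -2.25.

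Ratios between members in the same library need no scaling between libraries. Of 7 ratios chosen by role, 6 could be formed, the ratio of P3h1 to Crtap being without counts below the line. Counts are not corrected for gene length, so a ratio is not one of molecules, but length cancels when the ages are compared. P4ha3 had 0.545, 0.686, 0.672 and 0.976 counts per P4ha1 count in P28 replicates 1 to 4, against 2.01, 2.75, 1.39 and 2.08 in P18 replicates 1 to 4. In every P18 library P4ha3 had more counts than P4ha1, and in every P28 library fewer. The ratio at P18 was 2.84 times that at P28 (log2 difference -1.51; exact permutation p = 0.0286, 2-sided, the smallest that 4 against 4 allow, and 0.0571 after Benjamini-Hochberg adjustment over the 6 ratios).

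The summed alpha subunit genes, P4ha3 among them, stood lower against P4hb. P4ha1, P4ha2 and P4ha3 together had 0.429, 0.427, 0.303 and 0.430 counts per P4hb count in P28 replicates 1 to 4, against 0.506, 0.619, 0.527 and 0.534 in P18 replicates 1 to 4. The ages did not overlap (log2 difference -0.47, exact permutation p = 0.0286, adjusted 0.0571). The sum includes P4ha3, so this ratio is no result separate from the P4ha3 fall. A ratio without P4ha3 was not formed. P4ha2 per P4ha1 did not separate the ages: 1.43 ± 0.68 at P28 and 1.14 ± 0.29 at P18 (SD, n = 4 each; exact permutation p = 0.514), and the log2 difference of 0.26 became -0.03 without P28 replicate 3. Plod3 had 0.899, 0.907, 1.13 and 0.972 counts per Plod1 count in P28 replicates 1 to 4, against 0.729, 0.727, 0.310 and 0.766 in P18 replicates 1 to 4. All P28 libraries were above all P18 libraries (log2 difference 0.71; exact permutation p = 0.0286, adjusted 0.0571), and without P18 replicate 3 the difference was 0.39. Plod2 per Plod1 was 4.01 ± 0.49 at P28 and 4.14 ± 1.20 at P18 (exact permutation p = 1). P3h3 per P3h1 was 1.37 ± 0.30 at P28 and 0.877 ± 0.151 at P18 (log2 difference 0.63; exact permutation p = 0.0857, adjusted 0.129). None of the 6 ratios had an adjusted p under 0.05, and 0.0571 is the value that 3 smallest possible p among 6 give.

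**Figure D3:**
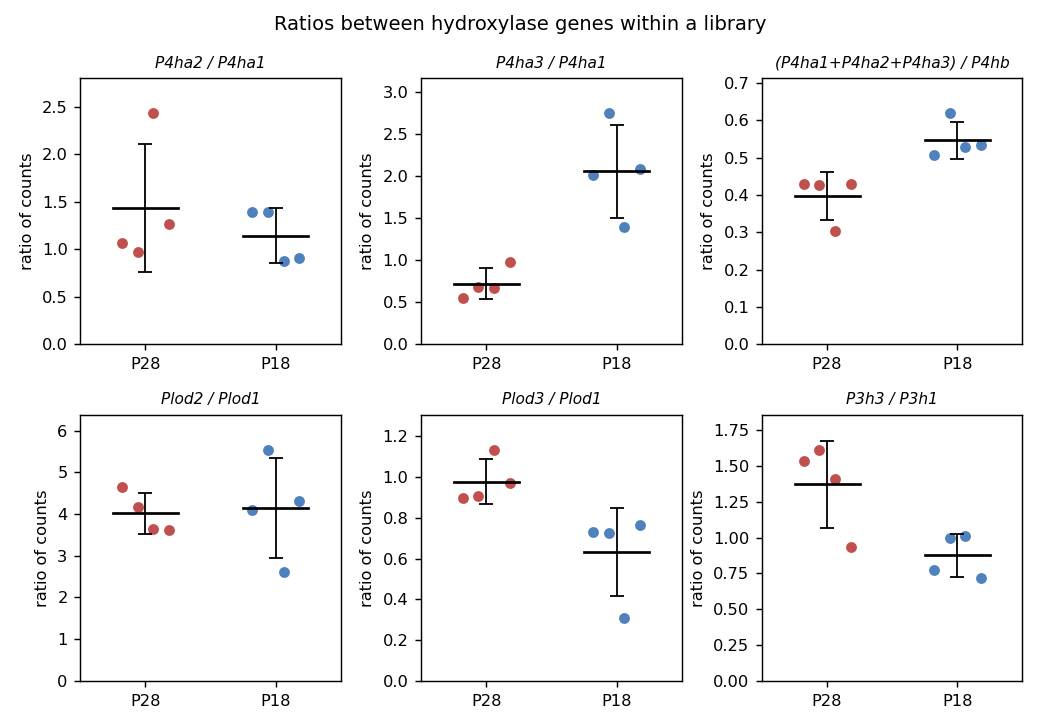
Counts of 1 gene or group per count of another in the same library (vertical axes, from 0), with 1 point per library, the mean as a bar and the SD as whiskers, P28 in red and P18 in blue. P4ha3 per P4ha1 is below 1 in the 4 P28 libraries and above 1 in the 4 P18 libraries.

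The other genes of collagen folding in the endoplasmic reticulum showed no edgeR call. Of 18 tested (22 listed), 0 were called in either direction by edgeR, 4 had an unadjusted p under 0.05, all lower, and 14 had a log2 fold change below 0. Their median was -0.29. Over all tested genes 14.5% had an unadjusted p under 0.05, 49.7% were below 0 and the median was 0.01. The lowest p belonged to Pdia4, a disulfide isomerase, at 183 ± 61.8 CPM at P28 and 343 ± 64.6 CPM at P18 (log2 fold change -0.91 ± 0.25, edgeR adjusted p = 0.105). Hspa5 (BiP), a general chaperone of this compartment, had a log2 fold change of -0.74 ± 0.22, and Hsp90b1 (GRP94), another, one of -0.53 ± 0.18, at edgeR adjusted p of 0.136 and 0.196. The DESeq2 Wald test called Pdia4 and Hspa5 lower, and voom Pdia4, beside 262 and 132 genes called lower over all 10472 tested.

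Among the collagen chains, the substrates of the hydroxylases, 2 rose. Of 9 tested (12 listed), 2 were called higher and 0 lower by edgeR, 1 was below 0, and the median log2 fold change was 0.71; over all tested genes, 0.516% were called higher, 49.7% were below 0 and the median was 0.01. Col5a3, a minor fibril chain, rose to 239 ± 66.6 CPM at P28, against 71.5 ± 19.4 CPM at P18 (log2 fold change 1.74 ± 0.27, edgeR adjusted p = 0.0180). Col6a2, of the microfibril-forming type VI, rose to 1382 ± 294 CPM at P28, against 701 ± 107 CPM at P18 (0.98 ± 0.20, edgeR adjusted p = 0.0457). The call of Col5a3 ended without P18 replicates 2 or 3 (adjusted p = 0.0610 and 0.0738) or P28 replicates 1 or 3 (0.0718 and 0.0521). That of Col6a2 ended when P18 replicate 1, 2, 3 or 4 was left out (0.0913, 0.192, 0.169 and 0.0862), and likewise for P28 replicates 1 or 3 (0.131 and 0.101). With the replicate number added to the edgeR fit as a block, the calls of Col5a3 and Col6a2 also ended (adjusted p = 0.0710 and 0.0868). For Col3a1, Col11a1 and Col5a1 the log2 fold changes were 0.69 ± 0.22, 0.78 ± 0.29 and 0.71 ± 0.29, short of the threshold (edgeR adjusted p = 0.171, 0.238 and 0.289). DESeq2 added Col3a1, beside 290 genes it called higher over all 10472 tested. Relative to Col1a1, no collagen chain was called, and Col5a3 stood at 1.23 ± 0.34 (edgeR adjusted p = 0.0757). Col1a2, the partner chain of Col1a1 in type I collagen, had only 0.18 to 0.68 counts per 1000 Col1a1 counts at P28 and 0.24 to 0.36 at P18. Type I collagen is therefore represented by Col1a1 counts alone. Col3a1, another abundant substrate (57209 ± 17188 CPM at P28 and 35484 ± 5054 CPM at P18), is left out of the Col1a1 scale. The annotation and strand setting of the counting are not stated, and why Col1a2 was so low was not tested. Its values, which are among those of the 9 tested chains, are reported only as listed.

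The remaining lists held no edgeR call, and their counts stand beside 14.5% of all tested genes with an unadjusted p under 0.05. Of 6 tested iron- and 2-oxoglutarate-dependent hydroxylases outside collagen (10 listed), 0 were called by edgeR, DESeq2 or voom and 0 had an unadjusted p under 0.05, with a median log2 fold change of -0.29. Those with the lowest p were Phyh, an enzyme of phytanic acid breakdown, Hif1an, which hydroxylates hypoxia-inducible factors, and Ogfod1, at 0.19 ± 0.24, -1.14 ± 1.49 and -1.28 ± 1.72. Of 12 hypoxia-response genes, 0 were called by edgeR, 1 had an unadjusted p under 0.05 above 0 and 3 below, and the median was -0.03. Hif1a, the oxygen-regulated factor itself, had 144 ± 59.7 CPM at P28 and 271 ± 30.4 CPM at P18, without overlap, as for 5.54% of all tested genes in that direction (log2 fold change -0.91 ± 0.30, edgeR adjusted p = 0.174). Adm, the vessel-widening peptide adrenomedullin, and Pdk1, whose kinase holds back pyruvate dehydrogenase, stood at -3.38 ± 1.10 and -0.84 ± 0.34 on the log2 scale (edgeR adjusted p = 0.168 and 0.282). Adm was called lower by DESeq2, beside 262 genes over all 10472 tested, and by no other tool. Of 8 tested genes of ascorbate and iron supply (10 listed), 0 were called by edgeR, DESeq2 or voom and 2 had an unadjusted p under 0.05, both higher: the metal transporter Slc39a14 and the ferritin light chain Ftl1, at 0.99 ± 0.40 and 0.52 ± 0.22. Slc39a13, a zinc transporter whose loss causes a connective tissue disorder, had 0.46 ± 0.26 (edgeR adjusted p = 0.457).

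**Figure D4:**
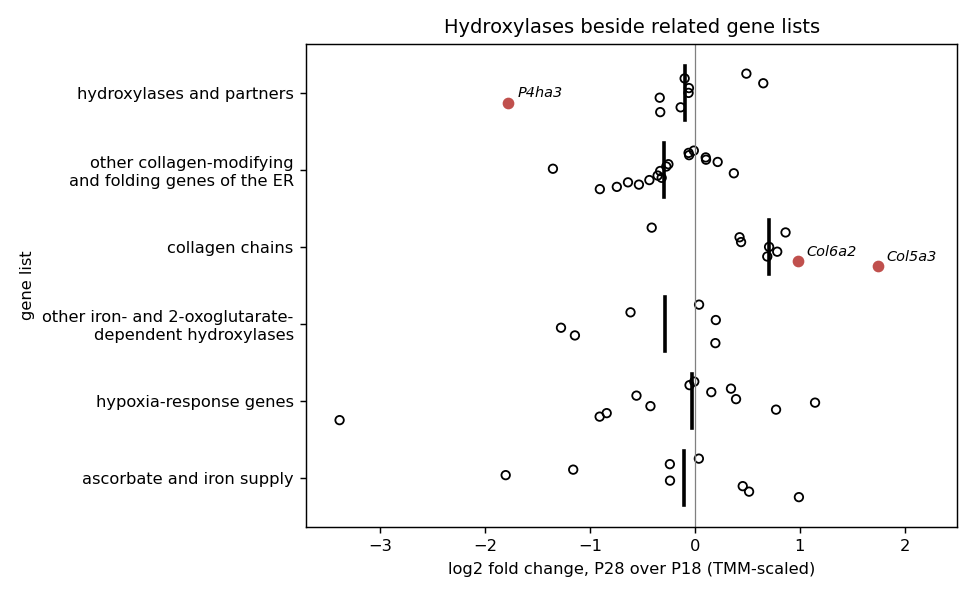
Log2 fold changes, P28 over P18 (horizontal axis, TMM-scaled), of the tested genes in each list (rows), with filled red points for an edgeR adjusted p under 0.05 and black bars for list medians. P4ha3 at -1.78 is the filled point below 0, and Col5a3 and Col6a2 at 1.74 and 0.98 are those above 0.

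The profile of P4ha3 was the least like that of the other members. Likeness was measured as the root-mean-square difference of log2 CPM over the 8 libraries, each gene centred on its own mean. The closest members were P4ha2 and Plod2 (0.16) and P4ha2 and P4hb (0.17), and the farthest were P4ha3 and Plod3 (1.40). Among 4807 other genes with a mean log2 CPM of at least 5, the nearest to P4ha3 were Tmeff1 (0.26) and Cndp2 (0.29). For P4hb they were Pgrmc1 (0.09) and Fkbp10 (0.09), of which Fkbp10 encodes a collagen chaperone of the endoplasmic reticulum. For P4ha1 they were Rab7a and Yars (0.13 and 0.14), for P4ha2 Tmbim4 and H1f0 (0.10 and 0.11), and for Plod1 Id2 and Dctn6 (0.11 and 0.12). For Plod3 they were Plekhj1 and Tssc4 (0.15 and 0.16), for P3h1 Rnase4 and Lpar1 (0.09 and 0.12) and for P3h3 Ndufc2 and Tnfsf12 (0.11 and 0.13). All 9 members shared the depth and composition of the same 8 libraries, and the measure favours genes of small spread. Since the measure grows with the size of a change, the distances of P4ha3 from the other members restate its fall and are no separate result.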

How the data were processed

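RNA was sequenced from laser-captured cervical periodontal ligament of 4 rats at P28 and 4 at P18. The authors deposited raw counts per gene symbol. The tools named are STAR 2.5.3a and HTSeq 0.9.1, beside edgeR 3.16.5 and build rn6, per the submitters' processing notes; annotation and strand setting are not stated there. A deposited normalized table and 40 columns of other samples were not used. Counts were tested with edgeR 4.0.16 (R 4.3.3; quasi-likelihood, 2-sided, TMM, age as the only term, expression filter by age with minimum count 10), leaving 10472 genes; a second fit used Col1a1 counts as library sizes. SE is the absolute log2 fold change over the square root of F (median 0.49), and 95% intervals use the 12.2 degrees of freedom of that fit. Log2 CPM used a prior count of 2. Ratios used 0.5 added to counts and exact permutation tests (SciPy 1.17.1). Alternatives were DESeq2 1.42.0, limma 3.58.1 (voom), other scalings and filters, a replicate block, and libraries left out. The fit was tested on simulated data. Members and lists were chosen with earlier results of these data known. Every member was named; from each pathway list, called genes and up to 3 others of lowest p were named. Marker lists are described as summed CPM, with marker genes named after their values were seen. Limits from counts cover counting error only, since PCR copies are not independent molecules. The genes nearest in profile to Plod2 are not reported here.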

Additional observations from a re-analysis of the deposited data

Results flagged for a closer look

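In 48 groups of 4 libraries (CPM, counts per 1000 Col1a1 counts and ratios), 5 had a library far from the other 3, by the gap to its nearest neighbour divided by the range; chance flags about 1 group in 20. P28 replicate 3 was far below the other P28 libraries for P4ha1 CPM (0.847 of the range) and for P4ha1, P4ha2 and P4ha3 together per P4hb count (0.978). P28 replicate 4 was above the other P28 libraries for P4ha2 CPM (0.834). P18 replicate 3 was below the other P18 libraries for Plod3 CPM (0.860) and for Plod3 per Plod1 count (0.915).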

How the results depend on the processing

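P4ha3 was called lower in all 7 alternatives of scaling, tool, filter and block (log2 fold change -2.04 to -1.76, adjusted p up to 0.0373) and relative to Col1a1 with the replicate block (-2.37) and with the sum of Col1a1, Col1a2 and Col3a1 as size (-2.30), and 0 other members were called in any fit. Leaving out 1 library, 0 to 1 members were called lower on either scale; calls over all genes, 54 higher and 44 lower with all libraries, ran from 4 to 110 higher and 5 to 105 lower, and relative to Col1a1 (14 and 97) from 2 to 21 higher and 9 to 482 lower. Over all genes DESeq2 called 290 higher and 262 lower, and voom 175 and 132. With the replicate block the counts were 16 and 10, and relative to Col1a1 9 and 63; it left the P4ha3 calls in place (adjusted p = 0.0368 and 0.0267). Same-numbered libraries did not deviate together (correlations across genes of -0.020 to 0.0019), and none correlated best with its own number. With that sum as size, 417 genes were called lower. The cause was not tested. Adding Col1a2 alone to Col1a1 hardly alters the size and tests nothing. No called value turned sign. P3h3 relative to Col1a1 was -0.0924 with that sum and -0.145 to 0.207 leaving out 1 library. Leaving out 1 library, the log2 fold change was -0.132 to 0.0559 for Plod2, -0.166 to 0.0876 for Plod1 and -0.281 to 0.0680 for P3h1. The 6 ratios moved by less than 1 SD in every alternative, but leaving out 1 library turned the sign of P4ha2 per P4ha1 (-0.0275 to 0.412) and Plod2 per Plod1 (-0.205 to 0.156); with 1 library left out no exact test can pass 0.05. Each tested member had at least 570 counts in every library; why Crtap was at 0 was not tested.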
